A study of Arabidopsis thaliana with 18 samples.

Results

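UDP-glycosyltransferases (UGTs) move a sugar from a UDP-sugar onto small molecules such as hormones, flavonoids, phenylpropanoids and foreign compounds. The sugar generally makes the acceptor more soluble and less active, and the conjugate can be stored in the vacuole or cleaved again by a beta-glucosidase. In plants the family is named by number and letter groups of related sequence, and herbicide safeners, compounds that protect crops from herbicide injury, are known for raising part of it together with glutathione transferases and cytochromes P450. The genes described here are the Arabidopsis thaliana UGT genes outside the UGT73 group and without UGT76B1. They are the probe sets annotated to 1 gene whose symbol starts with UGT, and 39 genes, each with 1 probe set, met this definition, of 13350 genes named by a probe set of 1 gene and among 22746 probe sets in all. The table held 47 UGT probe sets of 1 gene when UGT73 and UGT76B1 were counted in.

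RNA from rosette leaves of plants 4 weeks old was hybridized to 18 Affymetrix ATH1 arrays, 3 per group. The groups were tga2tga3tga5tga6 plants (the tga mutant, which lacks a set of TGA transcription factors) after safener and after mock treatment, sid2-2 plants (which lack the salicylic acid enzyme isochorismate synthase) after safener and after mock treatment, and wild type Col0 after safener and after mock treatment. The safener spray held mefenpyr at 5 mM and isoxadifen at 7.2 mM. The mock spray held the solvent, DMSO. Whether it also held the emulsifier of the safener formulation, and the time between spray and harvest, are not given in the sources used here. The labels call the arrays of a group biological replicates.

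Values are linear intensities, and the deposited table leaves part of them blank. Between 14627 and 16408 probe sets were listed per array, and 23 to 28 of the 39 UGT genes. The first wild type safener array had the fewest listed probe sets, and the third sid2-2 mock array had the most. These arrays also had the lowest mean correlation with the other arrays of their group, 0.981 and 0.978, so values without them are given where a result rests on them. Of the leaf markers, 4 of 28 were named in the annotation (LHCB4.1, LHCB4.2, LHCB4.3 and RCA), and each was listed on every array. The mean intensity of RCA, the activase of Rubisco, lay between 4013 and 5154 over the 6 groups. LHCB4.2 was lower after safener in wild type (log2 change -0.73, adjusted p 0.000962 in limma). LHCB4.3 was higher in sid2-2 than in wild type by 1.07 after safener and 1.00 after mock (adjusted p 0.000865 and 0.000997 in limma), and RCA by 0.30 after safener (adjusted p 0.0495). LHCB4.2 went the other way in mock sid2-2 against mock wild type plants without a call (-0.38, adjusted p 0.066). LHCB4.3 was not called in any safener response, and LHCB4.1 was not called in any comparison. Nor was FMA, the guard cell marker named in the annotation. The phloem sugar exporter SWEET11 was lower after safener by a log2 change of -0.62 in the tga mutant, -0.66 in sid2-2 and -0.35 in wild type (adjusted p in limma 0.000389, 0.000107 and 0.0147). The root marker PYK10 was lower after safener in sid2-2 (log2 change -0.88, adjusted p 0.000688 in limma). Against wild type PYK10 was higher in the tga mutant after safener (0.61, adjusted p 0.0197) and in sid2-2 after mock (0.54, adjusted p 0.0255). The part of these markers in the UGT results was not tested. In leaf RNA, fewer cells of a type and less RNA per cell cannot be told apart.

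Blanks took up much of the family. Of its 702 values, 246 (35%) were blank, against 31.5% of all values in the table. A value was listed on every array for 19 genes, on some arrays for 10 and on none for 10. The genes listed on no array were UGT71B8, UGT71C1, UGT71C2, UGT72E3, UGT74F1, UGT76E1, UGT78D3, UGT84A1, UGT84B1 and UGT84B2. Over the whole table, 19.4% of the probe sets were listed on no array.

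The share of blanks differed between number groups. In UGT84, 55 of 90 values (61.1%) were blank, and both UGT84B genes were without any value. UGT71 had 64 of 162 values blank (39.5%), with 4 of its 9 genes listed on every array. UGT72 lacked 23 of 72 values (31.9%), UGT76 lacked 40 of 126 (31.7%) and UGT85 lacked 28 of 90 (31.1%). In UGT85, 4 of the 5 genes were listed on some arrays only. UGT74 and UGT78 each had 18 of 54 values blank (33.3%), in each case the 1 gene that was never listed. The single genes UGT80B1, UGT87A2 and UGT88A1 had no blank value. Several of the unlisted genes are known glycosyltransferases of hormones. UGT74F1 glucosylates salicylic acid, UGT84B1 glucosylates the auxin indole-3-acetic acid, and UGT76E1 glucosylates 12-hydroxyjasmonic acid. A blank is a value that was not listed, and it does not show that a transcript was absent.

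**Figure D1:**
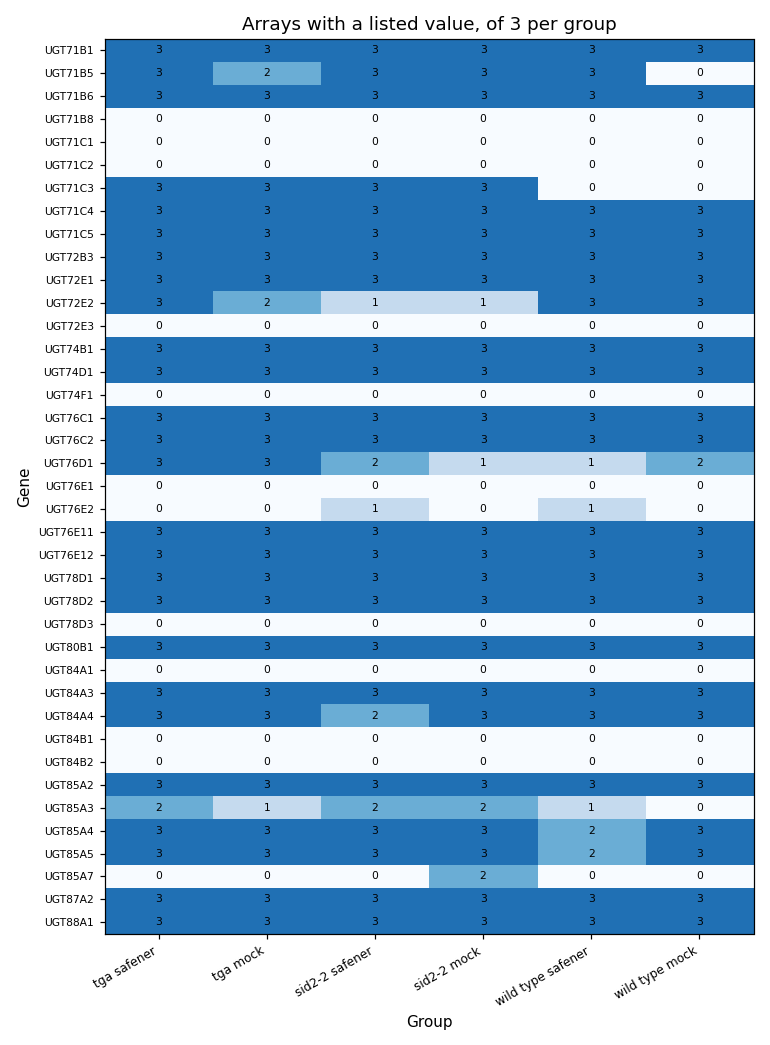
Number of arrays, of 3 per group, on which each of the 39 UGT genes (rows) had a listed value in each of the 6 groups (columns, from tga mutant safener to wild type mock); darker cells mean more arrays. In 10 rows all cells are 0, UGT71C3 is listed in all mutant groups and in neither wild type group, and UGT71B5 is missing from wild type mock only.

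UGT71C3 (AT1G07260), which glucosylates methyl salicylate, was listed on all 12 mutant arrays and on 0 of the 6 wild type arrays. Its intensities were 71.6, 66.6 and 81.8 on the tga safener arrays and 87.8, 70.1 and 45.2 on the tga mock arrays. They were 52.1, 63.7 and 55.2 on the sid2-2 safener arrays and 118, 142 and 89.3 on the sid2-2 mock arrays. All values in sid2-2 after safener lay below all values after mock, while the tga groups overlapped. UGT71B5 was listed on all 3 safener arrays and on 0 of the 3 mock arrays of wild type, and it was listed on all 3 mock arrays of sid2-2. No fold is given against a blank group. No other gene of the family was listed on all arrays of one group and on none of the group it was compared with. Over the whole table, 90 probe sets had that pattern in favour of safener in wild type and 64 in favour of mock. In mock plants it favoured the tga mutant over wild type for 135 probe sets and wild type for 26, and it favoured sid2-2 over wild type for 136 and wild type for 24. In safener plants it favoured the tga mutant for 81 and wild type for 42, and sid2-2 for 73 and wild type for 16.

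For the tests, limma was fitted to log2 intensities of all arrays, and a probe set was tested where each group of a comparison had at least 2 listed values. A gene was called at a Benjamini-Hochberg adjusted p under 0.05 over all probe sets tested. At least 1 comparison could be tested for 27 of the 39 genes, and 17 (63%) were called in at least 1, against 57.8% of all probe sets tested in at least 1. UGT76E2, listed on 1 sid2-2 safener array (44.7) and 1 wild type safener array (48.5), could not be tested, and nor could UGT85A7, listed on 2 sid2-2 mock arrays (63.0 and 89.6).

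After safener, 4 UGT genes were higher and 1 was lower in the tga mutant, of 26 tested. Over all probe sets, 19.1% were called there, 8.81% higher and 10.3% lower. In sid2-2, 5 were higher and 4 were lower, of 25 tested, against 32.6% of all probe sets (13% higher and 19.6% lower). In wild type, 3 were higher and 4 were lower, of 23 tested, against 32.2% of all probe sets (14.9% higher and 17.3% lower). The members' shares of 19.2%, 36% and 30.4% were close to these backgrounds. The median log2 change of the tested members was 0.0986 in the tga mutant, 0.0537 in sid2-2 and -0.0482 in wild type, against -0.0748, -0.0917 and -0.0579 over all probe sets tested. Of the 13 genes called in at least 1 genotype, 6 were called in 1, 6 in a pair of genotypes and 1, UGT78D1, in all 3. None was called in opposite directions. All called genes of the tga mutant and wild type had safener arrays that lay wholly beyond the mock arrays, as did 8 of the 9 in sid2-2. Among all called probe sets, 98.7% in the tga mutant, 93.6% in sid2-2 and 94.6% in wild type were without overlap.

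**Figure D2:**
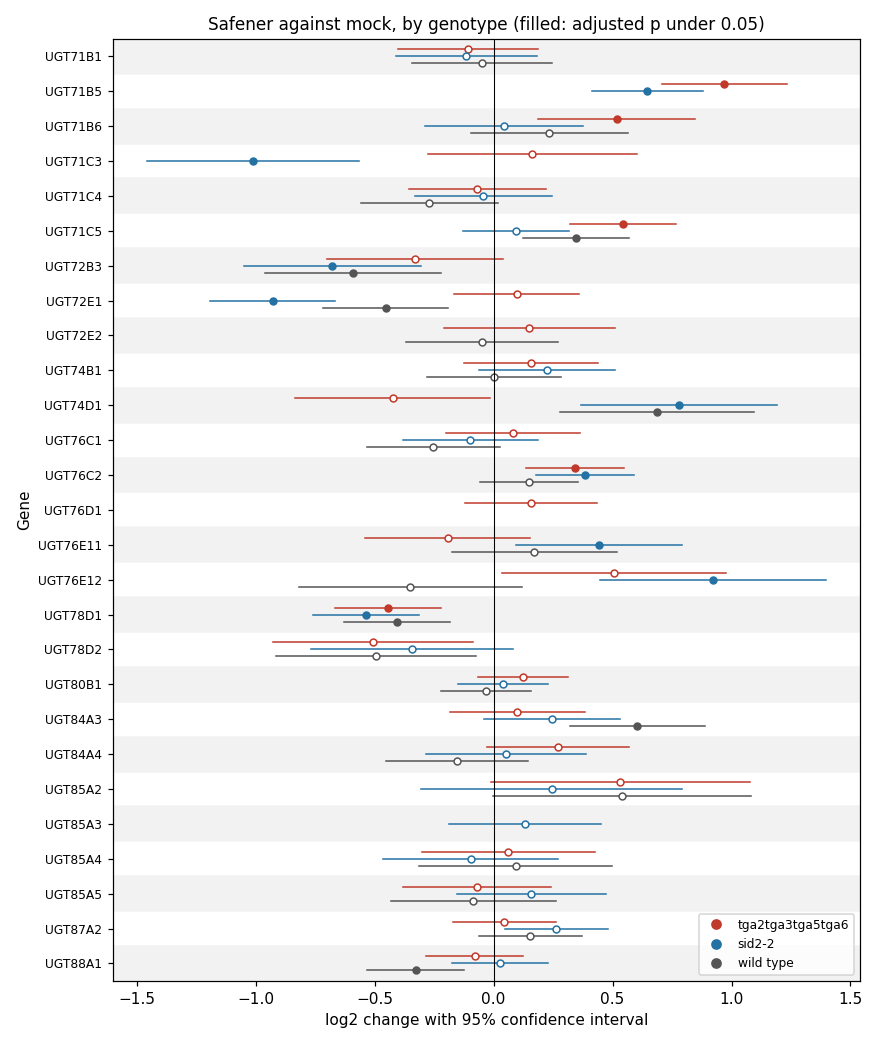
Log2 change, safener over mock, with its 95% confidence interval (x axis) for each UGT gene that could be tested (y axis), in the tga mutant, sid2-2 and wild type; filled points passed an adjusted p under 0.05 in limma. UGT78D1 lies below 0 in all 3 genotypes, UGT71B5 lies above 0 in both mutants, and UGT74D1 is above 0 in sid2-2 and wild type and below 0, not called, in the tga mutant.

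The UGT71 group held 3 of the 4 genes that were higher after safener in the tga mutant, UGT71B5, UGT71B6 and UGT71C5. UGT71B5 (AT4G15280) had intensities of 68.0, 54.0 and 48.8 on the tga safener arrays, against 29.1 and 28.4 on the tga mock arrays, of which 1 was blank. In sid2-2 it had 47.7, 50.1 and 49.9 after safener, against 32.1, 30.8 and 31.4 after mock. The wild type safener arrays had 36.2, 40.8 and 38.5, and the wild type mock arrays were blank. In both mutants every safener array was above every mock array. The log2 change was 0.97 (SE 0.12, adjusted p 5.98e-05 in limma) in the tga mutant and 0.65 (SE 0.11, adjusted p 0.000414) in sid2-2. The call in sid2-2 was lost with blanks set to the lowest value of each array (adjusted p 0.249). No sid2-2 array was blank for this gene, and the log2 change stayed at 0.65. In that setting the blank tga mock array took the value 6.76, and the wild type mock arrays took 6.79, 6.87 and 6.98. The cause of the lost call was not tested.

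UGT71C5 (AT1G07240), which glucosylates abscisic acid, had 443, 417 and 353 on the tga safener arrays, against 274, 287 and 267 on the tga mock arrays. In wild type it had 289, 307 and 319 after safener, against 253, 249 and 218 after mock. Neither pair of groups overlapped. In sid2-2 the values of 329, 276 and 293 after safener overlapped those of 255, 281 and 307 after mock. UGT71C5 was higher after safener by a log2 change of 0.54 (SE 0.11, adjusted p 0.00151 in limma) in the tga mutant and 0.35 (SE 0.11, adjusted p 0.0177) in wild type, with 0.09 in sid2-2. The wild type call was lost without the third safener array (adjusted p 0.0647) or the third mock array (adjusted p 0.0891).

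UGT71B6 (AT3G21780), also an abscisic acid glucosyltransferase, had 75.9, 68.8 and 65.7 on the tga safener arrays, against 44.3, 41.0 and 64.5 on the tga mock arrays. The groups came within about 1 unit of each other without overlap. The log2 change was 0.52 (SE 0.16, adjusted p 0.0281 in limma), and the call was lost without any 1 of 5 arrays of the comparison, the third mock array being the exception. In sid2-2 the gene had 48.0, 63.0 and 71.3 after safener, against 58.7, 65.3 and 51.5 after mock, and in wild type 51.3, 57.9 and 54.9, against 49.2, 41.6 and 48.9. Those responses were not called. Of the other measured UGT71 genes, UGT71C3 was lower after safener in sid2-2 by a log2 change of -1.01 (SE 0.21, 95% interval -1.46 to -0.56, adjusted p 0.00217 in limma), kept in every alternative tried. UGT71B1 and UGT71C4 were not called in any safener response. In the annotation UGT71C3, UGT71C4 and UGT71C5 are neighbouring genes with no protein-coding gene between them, and their calls after safener differed as given.

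In the UGT72 group, every called gene was lower after safener, and each call was in sid2-2 or wild type. UGT72E1 (AT3G50740) glucosylates coniferyl and sinapyl aldehyde, precursors of lignin. Its intensities were 120, 145 and 135 on the sid2-2 safener arrays, against 287, 266 and 212 on the sid2-2 mock arrays, and 100.2, 126 and 118 on the wild type safener arrays, against 164, 152 and 154 on the wild type mock arrays. The tga mutant had 206, 215 and 184 after safener, against 209, 165 and 192 after mock. The groups overlapped in the tga mutant only. UGT72E1 was lower after safener by a log2 change of -0.93 (SE 0.13, adjusted p 2.27e-05 in limma) in sid2-2 and -0.45 (SE 0.13, adjusted p 0.00955) in wild type, with 0.10 in the tga mutant. The wild type value was -0.36 (adjusted p 0.054) without the first wild type safener array. The difference between the tga mutant and wild type, 0.55 (95% interval 0.18 to 0.92), did not pass the adjustment (adjusted p 0.300), and nor did that between sid2-2 and wild type, -0.47 (95% interval -0.85 to -0.10, adjusted p 0.410).

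UGT72B3 (AT1G01420) had 30.5, 48.2 and 44.5 on the sid2-2 safener arrays, against 70.9, 80.0 and 47.3 on the sid2-2 mock arrays. Wild type had 36.5, 40.5 and 33.1 after safener, against 46.1, 58.5 and 62.1 after mock. The sid2-2 groups overlapped by 1 array each, and the wild type groups did not overlap. The gene was lower after safener by a log2 change of -0.68 (SE 0.18, adjusted p 0.00718 in limma) in sid2-2 and -0.59 (SE 0.18, adjusted p 0.015) in wild type. In the tga mutant it had 55.4, 51.8 and 54.8 after safener, against 64.3, 67.5 and 71.9 after mock, without overlap but not called (log2 change -0.33). The sid2-2 call was lost when the spread came from the arrays of that comparison alone (adjusted p 0.0515), and the wild type call was lost without the third safener array (adjusted p 0.0611) or the third mock array (adjusted p 0.0672). UGT72E2, a monolignol glucosyltransferase, was listed on 1 array in each sid2-2 group and was tested in the tga mutant and wild type without a call.

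UGT74D1 (AT2G31750), a glucosyltransferase of indole-3-acetic acid, was higher after safener in sid2-2 and wild type. The tga mutant had 48.5, 58.6 and 52.9 after safener, against 64.9, 66.5 and 84.3 after mock. In sid2-2 the values were 298, 395 and 509 after safener, against 246, 236 and 204 after mock, and in wild type 176, 315 and 262 after safener, against 127, 164 and 167 after mock. Every safener array lay above every mock array in sid2-2 and in wild type, and every safener array lay below every mock array in the tga mutant. The log2 change was 0.78 (SE 0.20, adjusted p 0.00568 in limma) in sid2-2, 0.69 (SE 0.19, adjusted p 0.0112) in wild type and -0.42 (SE 0.20, adjusted p 0.135) in the tga mutant. The wild type call was lost without the second safener array (adjusted p 0.0586) or the first mock array (adjusted p 0.0616).

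The response of UGT74D1 differed between the tga mutant and wild type by a log2 value of -1.11 (SE 0.27, 95% interval -1.69 to -0.54), which did not pass the adjustment (p 0.000697 and adjusted p 0.0967 in limma). Of the 23 members tested for that difference, 0 were called, against 0.467% of all probe sets (0.0412% higher and 0.426% lower). Without the first wild type safener array, the array with the fewest listed values, the difference for UGT74D1 was -1.35 with an adjusted p of 0.0162. With the replicate number as a block it was -1.11 with an adjusted p of 0.0441. Under weights for each array, 3 members passed, UGT74D1 (adjusted p 0.00159), UGT72E1 (adjusted p 0.0406) and UGT84A3 (adjusted p 0.0470). UGT74B1, which makes the core glucosinolate structure, was not called in any safener response, with mean intensities of 1377 ± 37 after safener and 1236 ± 62 after mock in the tga mutant (SD, n = 3 each).

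In the UGT76 group, UGT76C2 was higher after safener in both mutants, UGT76E11 and UGT76E12 were higher in sid2-2, and no difference of a response from wild type was called. UGT76C2 (AT5G05860) attaches glucose to nitrogen atoms of cytokinins. It had 104, 104 and 98.6 on the tga safener arrays, against 78.2, 80.1 and 83.6 on the tga mock arrays, and 162, 137 and 158 on the sid2-2 safener arrays, against 121, 123 and 106 on the sid2-2 mock arrays. In wild type 108, 100.4 and 121 after safener overlapped 93.2, 97.4 and 106 after mock. The log2 change was 0.34 (SE 0.10, adjusted p 0.0216 in limma) in the tga mutant and 0.38 (SE 0.10, adjusted p 0.00646) in sid2-2, with 0.15 in wild type. The tga call was lost without the first or the second safener array (adjusted p 0.0703 and 0.0555) and without the first or the second mock array (adjusted p 0.0616 and 0.0673). Its neighbour UGT76C1, also a cytokinin N-glucosyltransferase, was listed on every array and was not called in any comparison.

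UGT76E12 (AT3G46660) had 198, 222 and 196 on the sid2-2 safener arrays, against 110, 106 and 108 on the sid2-2 mock arrays. The tga mutant had 122, 75.3 and 69.4 after safener, against 72.6, 48.3 and 63.4 after mock, and wild type had 49.2, 63.9 and 94.6 after safener, against 99.7, 95.2 and 64.8 after mock. Only the sid2-2 groups were apart without overlap. UGT76E12 was higher after safener in sid2-2 by a log2 change of 0.92 (SE 0.23, adjusted p 0.00472 in limma), kept in every alternative tried. The response in sid2-2 differed from that in wild type by a log2 value of 1.27 (95% interval 0.61 to 1.94), which did not pass the adjustment (p 0.000740 and adjusted p 0.143 in limma). For the difference between sid2-2 and wild type, 0 of 22 members were called, against 0.103% of all probe sets (0.0207% higher and 0.0826% lower).

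UGT76E11 (AT3G46670), which can glucosylate flavonoids, had 213, 209.8 and 219 on the sid2-2 safener arrays, against 171, 172 and 133 on the sid2-2 mock arrays, without overlap. The tga mutant had 84.3, 86.1 and 71.7 after safener, against 94.8, 98.8 and 83.0 after mock, and wild type had 78.6, 136 and 141 after safener, against 97.1, 104 and 105 after mock. Both of those pairs overlapped. The sid2-2 log2 change of 0.44 (SE 0.17, adjusted p 0.0493 in limma) lost its call when any 1 of the 6 arrays of the comparison was left out, with adjusted p between 0.0532 and 0.179. Without the first wild type safener array, the wild type change was also 0.44 (adjusted p 0.0111). UGT76D1, a glucosyltransferase of dihydroxybenzoic acids, was listed on 12 arrays and was not called.

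UGT78D1 (AT1G30530) was the gene that was lower after safener in all 3 genotypes. It attaches rhamnose to the 3 position of flavonols. Its intensities were 269.7, 265 and 242 on the tga safener arrays, against 333, 352 and 371 on the tga mock arrays, and 229, 239 and 221 on the sid2-2 safener arrays, against 298, 357 and 346 on the sid2-2 mock arrays. Wild type had 161, 191 and 173 after safener, against 247, 199.6 and 251 after mock. In no genotype did the groups overlap. The log2 change was -0.44 (SE 0.11, adjusted p 0.00693 in limma) in the tga mutant, -0.54 (SE 0.11, adjusted p 0.000901) in sid2-2 and -0.41 (SE 0.11, adjusted p 0.00677) in wild type, and these calls were kept in every alternative tried. The responses share no arrays with each other.

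UGT78D2 (AT5G17050), which attaches glucose to the 3 position of flavonoids, had 298, 221 and 236 on the tga safener arrays, against 353, 307 and 414 on the tga mock arrays. In sid2-2 it had 175, 259.7 and 257 after safener, against 330.2, 336 and 215 after mock, and in wild type 116, 157 and 156, against 242, 159 and 204. The sid2-2 groups overlapped and the others did not. The log2 changes of -0.51, -0.34 and -0.49 were not called. Without the third sid2-2 mock array the sid2-2 change was -0.55 (adjusted p 0.0443), and without the second wild type mock array the wild type change was -0.65 (adjusted p 0.0280). DFR, the anthocyanin enzyme dihydroflavonol reductase, was lower after safener by log2 changes of -1.38 in the tga mutant, -1.94 in sid2-2 and -1.72 in wild type (adjusted p 0.00336, 0.000304 and 0.000707 in limma). CHI, matched by its symbol alone, was not called in any of them. Whether this symbol stands for chalcone isomerase in the annotation was not checked. DFR and CHI were the 2 symbols of a flavonoid list of 27 that could be tested, and 3 of the 27 were named in the annotation.

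UGT84A3 (AT4G15490) makes glucose esters of hydroxycinnamic acids. It had 334, 449 and 462 on the wild type safener arrays, against 223, 297 and 298 on the wild type mock arrays, without overlap. Its values were 492, 624 and 540.0 after safener, against 435, 490.2 and 468 after mock, in sid2-2, and 249, 277 and 233, against 249.9, 234 and 224, in the tga mutant. The gene was higher after safener in wild type by a log2 change of 0.60 (SE 0.14, adjusted p 0.00231 in limma), kept in every alternative tried, with 0.24 in sid2-2 and 0.10 in the tga mutant. The sid2-2 groups lay close together without overlap, and the tga groups overlapped. The difference between the tga mutant and wild type was -0.50 (95% interval -0.90 to -0.10, adjusted p 0.447). UGT84A4, its neighbour and also a hydroxycinnamate glucosyltransferase, was not called in any safener response.

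UGT88A1 (AT3G16520) was lower after safener in wild type. It had 999, 1182 and 1162 on the wild type safener arrays, against 1396, 1335 and 1454 on the wild type mock arrays, without overlap. The mutants had 1040.0, 1051 and 1008 after safener, against 1070.0, 1117 and 1089 after mock, in tga2tga3tga5tga6, and 1008, 1119 and 1202, against 1180.0, 1113 and 976, in sid2-2. All 12 mutant arrays lay below all 3 wild type mock arrays. The wild type log2 change was -0.33 (SE 0.10, adjusted p 0.0148 in limma). Its call was lost with the arrays of that comparison alone (adjusted p 0.0541), without the first safener array (-0.25, adjusted p 0.0751) and without the third mock array (adjusted p 0.0574). UGT80B1, a sterol glucosyltransferase, UGT87A2, which is known for a role in flowering time, and the UGT85A genes were not called in any comparison. Of the UGT85A genes, UGT85A3 could be tested in 1 of the 9 comparisons (safener in sid2-2) and UGT85A7 in none. UGT85A2 had log2 changes of 0.53 in the tga mutant, 0.24 in sid2-2 and 0.54 in wild type after safener. Without the first wild type safener array its wild type change was 0.85 (adjusted p 0.0176), and without the third sid2-2 mock array it was higher in mock sid2-2 than in mock wild type plants by 1.07 (adjusted p 0.00406). UGT87A2 was higher after safener in sid2-2 without the third sid2-2 mock array (0.31, adjusted p 0.0405) or the first sid2-2 safener array (0.32, adjusted p 0.0469).

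**Figure D3:**
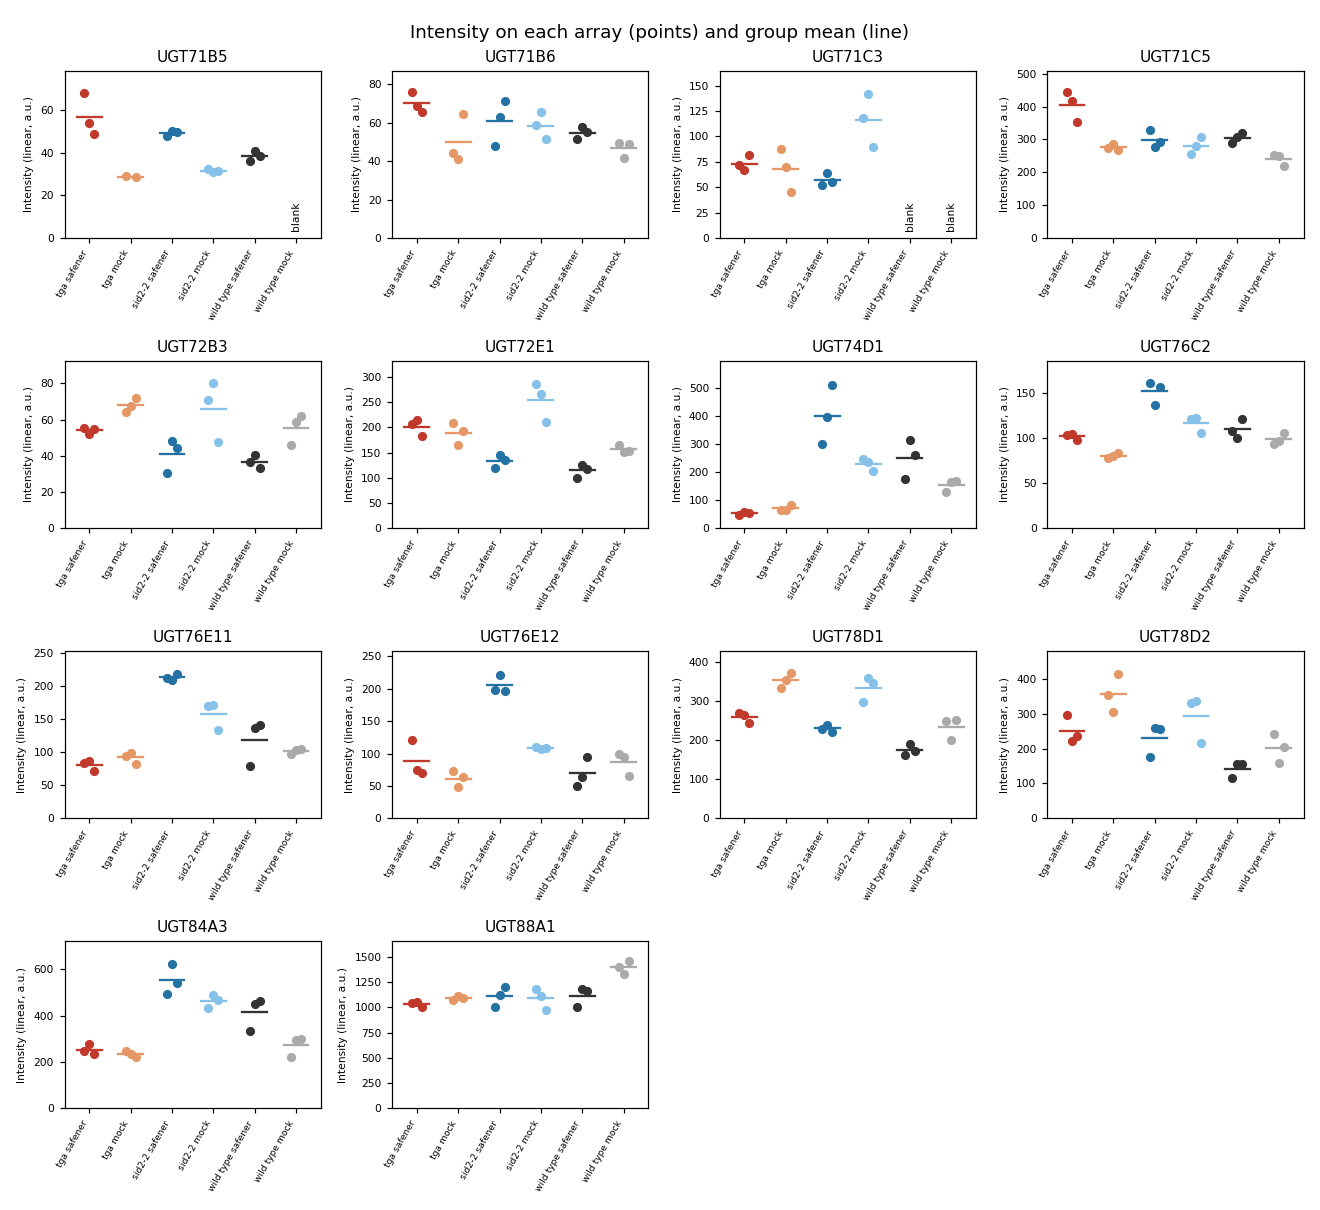
Linear intensity (y axis) on each array (points) with the group mean (line) for 14 UGT genes, with the groups from tga safener on the left to wild type mock on the right; "blank" marks groups without a listed value. UGT74D1 is lowest in both tga groups, UGT76E12 is highest in sid2-2 safener, and UGT88A1 is highest in wild type mock.

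Between mutant and wild type, UGT74D1 was lower in the tga mutant and UGT76E11 higher in sid2-2 after both treatments, UGT84A3 was lower in the tga mutant and UGT76E12 higher in sid2-2 after safener, and UGT78D1 was higher in both mutants after both treatments. The share of UGT genes called was above that of all probe sets in each of the 4 comparisons, which is a description of counts without a test. In mock sid2-2 plants this turned without the first sid2-2 mock array, where 22.7% of the UGT genes and 24.7% of all probe sets were called. In mock plants of the tga mutant 2 genes were higher and 2 lower than in wild type, of 24 tested, or 16.7% against 7.81% of all probe sets (6.04% higher and 1.77% lower). In mock sid2-2 plants 6 were higher and 2 lower, of 22 tested, or 36.4% against 22.7% (17.3% higher and 5.37% lower). After safener 7 were higher and 3 lower in the tga mutant, of 24 tested, or 41.7% against 13% (8.81% higher and 4.23% lower). After safener 8 were higher and 0 lower in sid2-2, of 23 tested, or 34.8% against 13.1% (8.94% higher and 4.17% lower). The 2 comparisons of mock plants share the wild type mock arrays, and the 2 of safener plants share the wild type safener arrays. Without the first wild type safener array, 6 members in place of 10 were called in the tga mutant after safener and 3 in place of 8 in sid2-2, or 25% and 13% of those tested, against 8.03% and 8.61% of all probe sets. The median log2 difference of the members was 0.0119 and 0.231 in mock tga and sid2-2 plants and 0.0872 and 0.216 after safener, against 0.0721, 0.107, 0.0546 and 0.0854 over all probe sets tested.

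UGT74D1 had the largest log2 difference among the UGT genes called. The 6 tga arrays lay between 48.5 and 84.3, below all arrays of the other genotypes, whose lowest value was 127. In the tga mutant it was lower than in wild type, with a log2 difference of -2.20 after safener (SE 0.19, 95% interval -2.61 to -1.79, 4.59-fold, adjusted p 2.18e-07 in limma) and -1.09 after mock (SE 0.19, adjusted p 0.00122), both kept in every alternative tried. In sid2-2 it was higher than in wild type, by 0.68 after safener (adjusted p 0.0267) and 0.59 after mock (adjusted p 0.0359). The sid2-2 and wild type groups overlapped after safener, where the call was lost without the first wild type safener array (adjusted p 0.154), the second sid2-2 safener array (adjusted p 0.0716) or the third sid2-2 safener array (adjusted p 0.127). The mock call was lost without the first or second array of sid2-2 (adjusted p 0.0850 and 0.0856) or of wild type (adjusted p 0.130 and 0.0605). Both sid2-2 calls were also lost with blanks set to the lowest value (adjusted p 0.0717 after safener and 0.0840 after mock). UGT74D1 itself had no blank value, and its log2 differences stayed at 0.68 and 0.59 in that setting.

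UGT78D1 was higher in the mutants than in wild type in all 4 comparisons. The log2 difference was 0.57 after safener (adjusted p 0.00128 in limma) and 0.60 after mock (adjusted p 0.00108) in the tga mutant, and 0.39 after safener (adjusted p 0.0191) and 0.52 after mock (adjusted p 0.00182) in sid2-2, with an SE of 0.11 each. The sid2-2 call after safener was lost without the first or the third wild type safener array (adjusted p 0.0840 and 0.0533), or the first or second sid2-2 safener array (adjusted p 0.0506 and 0.0719). UGT78D2 was higher by 0.82 after safener (SE 0.20, adjusted p 0.0101) and 0.84 after mock (SE 0.20, adjusted p 0.0126) in the tga mutant, and by 0.68 after safener in sid2-2 (SE 0.20, adjusted p 0.0298). Without the first wild type safener array the safener differences were 0.68 (adjusted p 0.0640) in the tga mutant and 0.54 (adjusted p 0.141) in sid2-2. The tga call after safener was also lost without the first tga safener array (adjusted p 0.0615), the tga call after mock without the third tga or the second wild type mock array (adjusted p 0.0783 and 0.0867), and the sid2-2 call without the second or the third sid2-2 safener array (adjusted p 0.116 and 0.101). In mock sid2-2 plants UGT78D2 was not called, but it was without the third sid2-2 array (0.74, adjusted p 0.0167) or the first wild type array (0.68, adjusted p 0.0340). Both flavonoid genes thus had their lowest group mean in wild type safener plants. For UGT78D1 it was 175 ± 15 (SD, n = 3), and for UGT78D2 it was 143 ± 24 (SD, n = 3). DFR was also higher in the tga mutant than in wild type, by 1.77 after safener (adjusted p 0.00136) and 1.43 after mock (adjusted p 0.00428), and it was not called in sid2-2. The gene under the symbol CHI was lower in sid2-2 than in wild type after safener (log2 difference -0.52, adjusted p 0.00693). It was not called in the tga mutant, and its place in the flavonoid pathway was not checked.

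Of the UGT76E genes, UGT76E12 was higher in sid2-2 than in wild type after safener, and UGT76E11 after both treatments. UGT76E12 averaged 205 ± 14.7 in sid2-2 safener plants and 69.2 ± 23.2 in wild type safener plants (SD, n = 3 each). The log2 difference was 1.62 (SE 0.23, 95% interval 1.15 to 2.09, 3.07-fold, adjusted p 9.62e-05 in limma). After mock the difference was 0.34 and not called. UGT76E11 was higher in sid2-2 by 0.90 after safener (SE 0.17, adjusted p 0.00131) and 0.63 after mock (SE 0.17, adjusted p 0.011), both kept in every alternative tried. In the tga mutant after safener it was lower than in wild type (log2 difference -0.51, SE 0.17, adjusted p 0.0478), with overlapping groups. That call was lost in 9 alternatives, among them leaving out any tga safener array or the second or the third wild type safener array (adjusted p 0.0773 to 0.193). These genes are separated by 1 protein-coding gene in the annotation. UGT76C2 was higher in safener plants of sid2-2 than of wild type by 0.47 (SE 0.10, adjusted p 0.00366).

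UGT84A3 was called lower than in wild type in the tga mutant after safener and not after mock, and higher in sid2-2 after both treatments. The difference between the safener responses of the tga mutant and wild type was not called. In mock plants the tga and wild type groups overlapped, and the gene was not called. After safener it was lower in the tga mutant than in wild type (log2 difference -0.70, SE 0.14, adjusted p 0.00167 in limma), with 3 tga arrays between 233 and 277 and 3 wild type arrays between 334 and 462. In sid2-2 it was higher than in wild type by 0.78 after mock (SE 0.14, adjusted p 0.000496), with arrays between 435 and 490.2 against 223 and 298. Those calls were kept in every alternative tried. The sid2-2 difference after safener, 0.42 (SE 0.14, adjusted p 0.0476), was 0.27 without the first wild type safener array (adjusted p 0.232), and it was also lost without the second or the third sid2-2 safener array (adjusted p 0.186 and 0.0833). UGT84A4 was lower in sid2-2 than in wild type after mock (log2 difference -0.52, SE 0.14, adjusted p 0.0144). This call was lost in 4 alternatives, among them leaving out the first sid2-2 or the third wild type mock array (adjusted p 0.0600 and 0.0602) and filling blanks (adjusted p 0.629). The blank of UGT84A4 was on a sid2-2 safener array, outside this comparison, and the log2 difference stayed at -0.52.

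Among the other genes, UGT72E1 was higher than in wild type by 0.82 in the tga mutant after safener (SE 0.13, adjusted p 0.000179 in limma) and by 0.69 in sid2-2 after mock (SE 0.13, adjusted p 0.000723), both kept in every alternative tried. UGT88A1 was lower after mock, with log2 differences of -0.35 in the tga mutant (SE 0.10, adjusted p 0.0311) and -0.36 in sid2-2 (SE 0.10, adjusted p 0.0128). The tga call was lost without any 1 of its 6 arrays (adjusted p 0.0577 to 0.113), and the sid2-2 call without the third sid2-2 or the third wild type mock array (adjusted p 0.0590 and 0.0502). UGT71C5 was higher in safener plants of the tga mutant than of wild type by 0.40 (SE 0.11, adjusted p 0.0167), and UGT74B1 by 0.51 (SE 0.14, adjusted p 0.0161). These were 0.36 (adjusted p 0.0672) and 0.30 (adjusted p 0.0842) without the first wild type safener array. The UGT71C5 call was also lost without the first or second tga safener array (adjusted p 0.0929 and 0.0670), and the UGT74B1 call without the second tga safener array (adjusted p 0.0590).

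Among safener plants, UGT71B5 was higher than in wild type by 0.55 in the tga mutant (SE 0.11, adjusted p 0.00342 in limma) and 0.36 in sid2-2 (SE 0.11, adjusted p 0.0443), without overlap in either case. Both calls were lost when blanks were filled (adjusted p 0.439 and 0.621). No safener array was blank for UGT71B5, and its log2 differences stayed at 0.55 and 0.36. The filled values were on mock arrays, and the cause of the lost calls was not tested. The sid2-2 call was also lost without any 1 of the sid2-2 safener arrays or without the first or the third wild type safener array (adjusted p 0.0767 to 0.138). UGT72B3 was higher in safener plants of the tga mutant than of wild type by 0.56 (SE 0.18, adjusted p 0.0422). Its call was lost in 7 alternatives, among them leaving out any tga safener array or the first or the third wild type safener array (adjusted p 0.0829 to 0.129). UGT71B1 was higher in mock sid2-2 plants by 0.44 (SE 0.14, adjusted p 0.03), with a call lost without the first or second sid2-2 mock array, without the second or the third wild type mock array (adjusted p 0.0567 to 0.0979) and with blanks filled (adjusted p 0.0605).

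**Figure D4:**
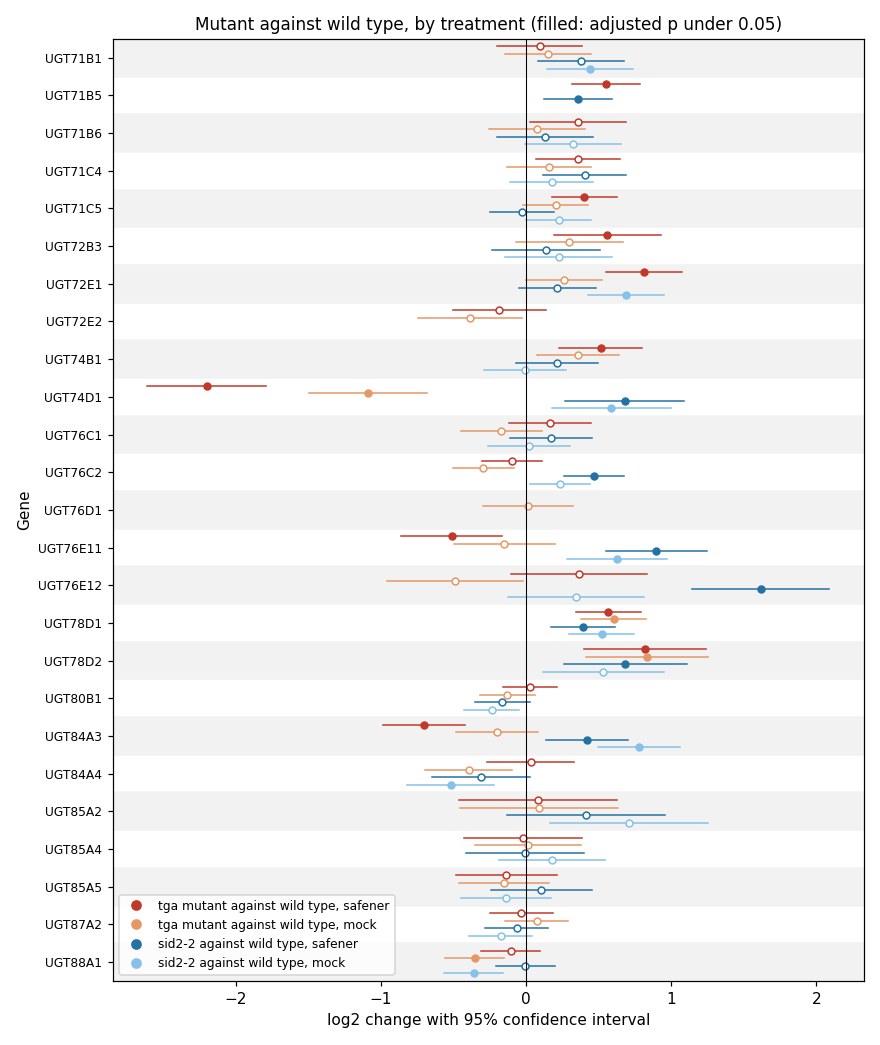
Log2 difference, mutant over wild type, with its 95% confidence interval (x axis) for each UGT gene that could be tested (y axis), for the tga mutant and sid2-2 after safener and after mock; filled points passed an adjusted p under 0.05 in limma. UGT74D1 lies far below 0 in the tga mutant and above 0 in sid2-2, UGT78D1 lies above 0 in all 4 comparisons, and UGT76E12 lies far above 0 in sid2-2 after safener.

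Other genes of glycoside metabolism were read from lists. Beta-glucosidases, which can remove the sugar again, had 22 annotated members. After safener 5 were higher and 2 lower of 14 tested in the tga mutant, 5 higher and 3 lower of 12 in sid2-2, and 3 higher and 1 lower of 11 in wild type. The shares of all probe sets called in these responses were 19.1%, 32.6% and 32.2%. BGLU45 was higher by log2 changes of 1.90 in the tga mutant, 2.27 in sid2-2 and 2.47 in wild type (adjusted p 8.89e-05, 6.65e-06 and 1.62e-06 in limma). BGLU46 averaged 96.2 after safener and 39.6 after mock in the tga mutant, 81.3 and 25.5 in sid2-2, and 45.7 and 19.0 in wild type (adjusted p 9.11e-05, 3.79e-06 and 4.61e-05). BGLU25 was higher by 0.68, 0.54 and 0.69 (adjusted p 0.0166, 0.0348 and 0.00826). The called genes that were lower were BGLU31 and BGLU40 in the tga mutant (log2 change -0.58 and -0.33). In sid2-2 they were BGLU33, BGLU44 and PYK10 (-0.74, -0.54 and -0.88), and in wild type BGLU44 (-0.38). BGLU45 and BGLU46 are known to hydrolyse monolignol glucosides. Against wild type, beta-glucosidases were higher for 5 of 12 in the tga mutant and 2 of 12 in sid2-2 after safener, and for 1 of 12 and 3 of 11 after mock, and 0 were lower. Of all probe sets, 8.81% and 8.94% were higher in these comparisons after safener and 6.04% and 17.3% after mock. The median log2 change of the list after safener was -0.0475, 0.092 and 0.157 in the tga mutant, sid2-2 and wild type.

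Supply of UDP-sugars could hardly be read, since 1 of 33 genes listed, USP (UDP-sugar pyrophosphorylase), was named in the annotation. Its mean intensity lay between 388 and 442 over the 6 groups, and it was not called in any comparison. Of 10 genes that transfer malonyl or other acyl groups to glucosides or make related esters, 0 were named.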

How the data were processed

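The authors deposited 1 linear intensity per probe set and array, made with RMA per the submitters' processing notes (no version given). The median of the listed values was 200 on each array. Blanks were 31.5% of all values and 27.9% to 35.7% per array, most on the first wild type safener array. Without that array, the median log2 difference of all probe sets between sid2-2 and wild type after safener was 0.0441, in place of 0.0854. Why values are blank is not given in the sources used here. All columns were used (0 left out), and 64 of 22810 probe sets, array controls, were dropped. Gene names came from the platform annotation (1 gene for 13513 probe sets, several for 503, no entry for 8730), and all 39 members matched RefSeq by gene ID.

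Intensities were turned to log2, with blanks as missing. A model of the 6 group means was fitted to all 18 arrays in limma 3.58.1 (R 4.3.3, lmFit and eBayes), and 9 contrasts were read, each over probe sets with at least 2 listed values per group. Calls are two-sided, with Benjamini-Hochberg adjusted p under 0.05. Precision is that of 3 arrays per group. Alternatives changed the treatment of blanks, the filter, the normalization, an offset, the arrays behind the spread, array weights, the replicate block and the arrays left out. The fit was tested on simulated data. Errors are SE for log2 values and SD for intensities. Members and gene lists were chosen with earlier results of these data known. Values on every array are given for members called after safener, for up to 4 called members of each other comparison, and for members listed in one group and blank in the other. Gene order is that of RefSeq.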

Additional observations from a re-analysis of the deposited data

Results flagged for a closer look

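UGT74D1 was singled out because every safener array lay below every mock array in the tga mutant (48.5, 58.6 and 52.9 after safener, against 64.9, 66.5 and 84.3 after mock) and above every mock array in wild type (176, 315 and 262 after safener, against 127, 164 and 167 after mock). The difference of the 2 responses was -1.11 on the log2 scale with an adjusted p of 0.0967 in limma. The tga response alone was not called.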

How the results depend on the processing

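The 51 calls of single UGT genes were repeated under other settings. Of these, 24 were kept in each setting that still tested the gene, 27 were lost in at least 1 and 0 reversed. Of 161 uncalled values, 34 were called in some setting. A gene that a setting no longer tested was not counted as lost. UGT71B5 after safener in the tga mutant was such a case, with a blank tga mock array. Filling blanks with the array's lowest value lost 14 calls. That setting tested 18339 probe sets in each comparison, and some of the genes that lost a call had no blank value. With array weights the members called numbered 11 in place of 5 for safener in the tga mutant, 11 in place of 7 for safener in wild type, 8 in place of 4 for mock tga against wild type and 16 in place of 8 for mock sid2-2 against wild type, and 3 and 1 in place of 0 for the differences of the response in the tga mutant and sid2-2. The share of all probe sets called under weights was 33.6%, 47.2%, 18.6%, 36.2%, 2.97% and 0.75% in these comparisons. For safener in the tga mutant the count was 3 of 21 tested with a mean log2 of at least 6 (14.3%, against 20.7% of all probe sets). It was 9 of 26 with the arrays of the comparison alone (34.6% against 27.6%). For sid2-2 against wild type after safener it was 5 of 29 with blanks filled (17.2% against 8.19%). With the arrays of that comparison alone it was 4 of 23 (17.4% against 8.19%). When 1 array was left out, the counts ran from 2 to 4 (safener, tga), 8 to 10 (safener, sid2-2), 4 to 8 (safener, wild type), 0 to 1 (difference, tga), 0 to 0 (difference, sid2-2), 2 to 3 (mock tga), 5 to 10 (mock sid2-2), 6 to 9 (safener tga against wild type) and 3 to 10 (safener sid2-2 against wild type). In the same order, the shares of all probe sets called ran from 10.4% to 17.5%, 24.8% to 31.9% and 25.3% to 34.8% for the safener responses. They ran from 0.194% to 0.485% and 0.0351% to 0.139% for the differences. For mutant against wild type they ran from 4.52% to 7.67%, 13.4% to 24.7%, 8.03% to 15.1% and 8.61% to 15.5%. The causes were not tested. Labels give all groups the same replicate numbers, but deviations of same-numbered arrays correlated between -0.37 and 0.46, not above 0.1 for every number in any comparison, so the numbers were not taken as pairs. With the replicate number as a block, 1 member in place of 0 was called for the difference in the tga mutant, and the other counts were 5, 8 and 7 for the safener responses, 0 for the difference in sid2-2, 4 and 8 in mock tga and sid2-2 plants and 9 and 7 after safener. The shares of all probe sets called with the block were 0.447% for the difference in the tga mutant and 18.6%, 31.7% and 31.9% for the safener responses. They were 0.0413% for the difference in sid2-2, 7.2% and 21.8% in mock plants and 12.4% and 12.5% after safener. Taking the lowest probe set per gene changed nothing, since each member has 1. Probe sets listed on all arrays had a median intensity of 243, and those listed on some arrays 30.5, so low levels are measured in part.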

Other observations

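Several probe sets measure UGT genes that the definition by symbol leaves out. RefSeq lists UF3GT as UGT79B1, an anthocyanin glycosyltransferase, which was listed on 11 arrays. It averaged 89.6 ± 19.8 after safener and 138 ± 17.1 after mock in the tga mutant (SD, n = 3 each), a log2 change of -0.64 (SE 0.15, adjusted p 0.00928 in limma). GT72B1, listed as UGT72B1 and known to conjugate chlorinated phenols, was measured on every array. It averaged 618 ± 65.3 after safener and 553 ± 53.5 after mock in the tga mutant, 913 ± 211 and 725 ± 135 in sid2-2, and 956 ± 248 and 783 ± 73.7 in wild type. None of these responses was called. After safener GT72B1 was lower in the tga mutant than in wild type by a log2 value of -0.60 (SE 0.19, adjusted p 0.0415 in limma), and in no other comparison was it called.

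A probe set shared by UGT71D1 and AT2G29710 was lower after safener in the tga mutant (log2 change -0.54, adjusted p 0.0063 in limma) and in sid2-2 (-0.48, adjusted p 0.0082). It was higher in mock tga plants (0.60, adjusted p 0.00534) and mock sid2-2 plants (0.37, adjusted p 0.0396) than in mock wild type plants. A probe set shared by UGT89B1 and AT1G73885 was higher after safener in wild type (0.34, adjusted p 0.0275). SGT, listed as UGT80A2, a sterol glucosyltransferase, was measured on every array and called in no comparison, and AT5G54010, listed as UGT79B6, was listed on no array.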
